A study of Mus musculus with 28 samples.

Results

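Th1 cells recovered 15 days after transfer into mice were restimulated through the T cell receptor for 2 h, and their transcripts were compared with those of unstimulated cells of the same kind. The comparison rests on 4 of the 28 arrays of the series, chosen by their labels: 2 restimulated Th1 arrays of day 15 and 2 unstimulated Th1 arrays of day 15. All 4 came from CD4+ T cells of the strain BwTRP1 Rag1-/-, whose transgenic T cell receptor recognises TRP1, a melanocyte protein, and which lack the recombinase needed to make other receptors. The cells were activated in culture by irradiated splenocytes carrying TRP1 peptide at 1 µM, with IL-12 at 3.33 ng/ml and antibody to IL-4 at 10 µg/ml as the Th1 condition. They were then given to B6.PL mice sublethally irradiated with 5 Gy. On day 15 the Thy1.2+ cells were purified from spleen and inguinal lymph node by CD4 enrichment and sorting, apart from the Thy1.1+ host. Each sample was split, and one portion was exposed to antibodies against CD3 and CD28 while the other was not. Side by side stand the same treatment of Th1 cells at day 5 (3 restimulated and 3 unstimulated arrays) and of Th17 cells at day 15 (4 and 4). Th17 cells were of the same strain and also had peptide at 1 µM and antibody to IL-4 at 10 µg/ml, but were polarised with other cytokines. Whether arrays of 1 group came from different animals is not labelled, so each p-value reflects no more than the variation among these arrays.

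Th1 cells are helper T cells that make interferon gamma under control of the transcription factor T-bet. When CD3 and CD28 are engaged together, calcium, MAP kinase and NF-kappaB signals reach the nucleus within minutes. Immediate early transcription factors are made first, and cytokine, chemokine and receptor genes follow, together with phosphatases, RNA-degrading proteins and other inhibitors that limit the signal. Cells that have met antigen before respond faster and make more cytokine than naive ones.

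Marker genes of the labelled cell type and of other cells were read in the 4 arrays. Of 8 T cell markers, 0 passed the test between the groups, and their levels lay between 10.54 (Cd3d, restimulated array 1) and 13.22 (Cd3e, unstimulated array 1) on the log2 RMA scale. Tbx21, which encodes T-bet, stood at 12.05 and 12.04 in restimulated arrays and 12.04 and 12.00 in unstimulated arrays. Cd8a, of cytotoxic T cells, stood at 6.29 and 6.54 in restimulated arrays and 6.39 and 6.56 in unstimulated arrays. None of the 6 B cell, 14 myeloid or 9 dendritic cell and MHC class II markers passed the test. With 7.29% of all genes passing, counts of 0 in lists this short do not set these or the T cell markers apart. Lower were 2 of 5 erythroid, 1 of 5 natural killer cell and 1 of 4 platelet markers, against 4.63% of all genes. Mean levels were 5.95 to 6.43 for B cell, 6.59 to 6.80 for myeloid and 7.41 to 7.52 for dendritic cell markers. They were 8.37 to 9.38 for erythroid, 6.64 to 7.53 for natural killer cell and 7.19 to 8.06 for platelet markers. A test between the groups does not show which cells were present, T cells included. The median of all genes differed little between arrays, from 6.96 to 7.09 over the 4 arrays, and no detection calls were used, so a level below the array median may be background. The restimulated arrays were less alike than the unstimulated ones: their Pearson correlation over all genes was 0.987 against 0.996 for the unstimulated pair, and the median SD between the 2 arrays of a group was 0.148 against 0.0888.

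Restimulation changed 1453 of 19938 genes (limma, adjusted p under 0.05), which is 7.29% of all genes tested. Of these, 529 were higher (2.65%) and 924 lower (4.63%). The spread was estimated over all 24 arrays taken after transfer. With 2 arrays a side the difference was called large where it also reached 1 log2 unit, a doubling or halving, in both same-numbered pairs of arrays. Large changes numbered 94 (0.471%), of which 85 were higher (0.426%) and 9 lower (0.0451%). Shared numbers are not labelled as portions of one sample, and 76 of the 94 genes also met a rule that needs no pairing, with every restimulated array at least 1 log2 unit from every unstimulated one. These were 73 of the 85 higher genes and 3 of the 9 lower ones (Napepld, Podxl and Atp1b2). Leaving out 1 array at a time kept 72 of the 94 called without unstimulated array 1, 76 without unstimulated array 2, 72 without restimulated array 1 and 89 without restimulated array 2. The count over all genes went to 343 without unstimulated array 1, 447 without unstimulated array 2, 768 without restimulated array 1 and 2646 without restimulated array 2. Fitted on the 4 arrays alone, the model called 42 genes (39 higher, 3 lower), all among the 94.

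**Figure D1:**
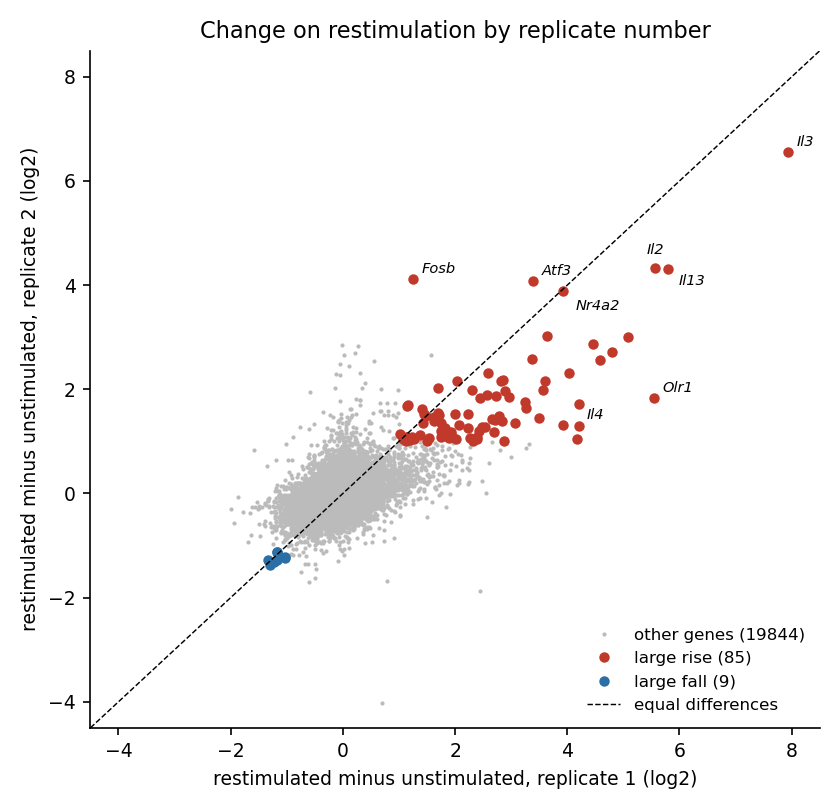
Log2 difference of restimulated minus unstimulated array for replicate number 1 (horizontal) and 2 (vertical), 1 point per gene over 19938 genes. The 85 genes with a large rise lie to the right and mostly under the dashed line of equal differences, and the 9 with a large fall lie near it.

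Restimulated array 1 responded more strongly than array 2. For 75 of the 85 genes with a large rise the difference was greater between the arrays numbered 1, with medians of 2.32 log2 units for number 1 and 1.44 for number 2. For the 9 large falls the medians were -1.18 and -1.24. Fosb, a subunit of the AP-1 transcription factor, ran the other way, at 12.07 and 12.63 in restimulated arrays and 10.81 and 8.51 in unstimulated arrays. The unstimulated array 1 was higher than unstimulated array 2 for Fosb, as it was for Fos (10.09 against 8.07) and Jun (10.59 against 9.16). Fos (log2 change 1.46, adjusted p = 0.107) and Jun (0.67, adjusted p = 0.53) did not pass. A permutation of labels among 4 arrays can give no p below 0.333, so the test across genes with its pooled spread carries all p-values here.

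**Figure D2:**
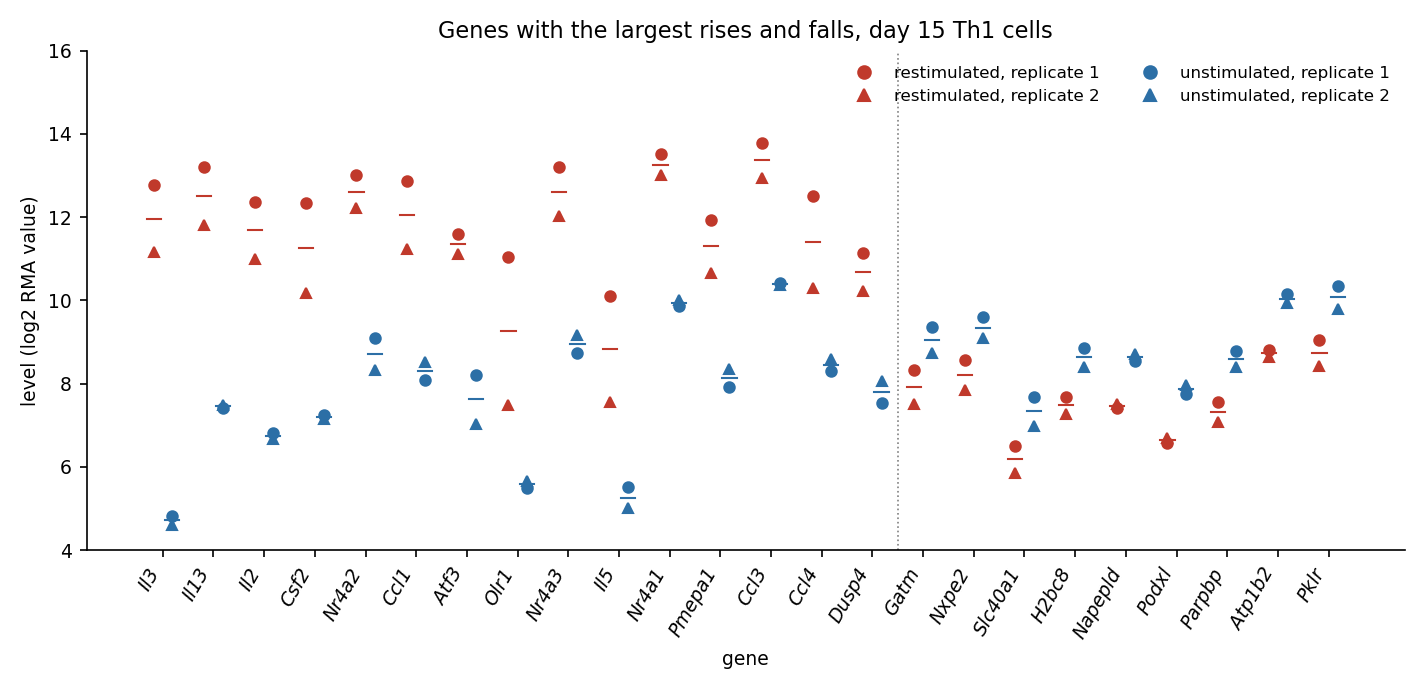
Level of each gene (log2 RMA value) in the 4 arrays, restimulated left and unstimulated right, with short lines at group means, for the 15 genes with the largest rises and the 9 with large falls. Il3 sits at 12.76 and 11.17 in restimulated arrays against 4.83 and 4.61 in unstimulated ones.

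Cytokine genes held the greatest rises. Il3, a growth factor for blood cells, stood at 12.76 and 11.17 in restimulated arrays and 4.83 and 4.61 in unstimulated arrays, a log2 change of 7.24 (SE 1.00, adjusted p = 0.000128). Il2, the T cell growth factor, stood at 12.37 and 11.00 in restimulated arrays and 6.81 and 6.67 in unstimulated arrays, a change of 4.94 (adjusted p = 0.000128). Both restimulated arrays of each gene lay far above both unstimulated ones, whose levels were under the array medians, so the sizes compare RMA values rather than transcript amounts. Il13, which drives type 2 responses, had 13.21 and 11.81 in restimulated arrays and 7.42 and 7.49 in unstimulated arrays (change 5.05, adjusted p = 8.53e-05). Csf2, encoding GM-CSF, had 12.34 and 10.17 in restimulated arrays and 7.26 and 7.16 in unstimulated arrays (change 4.05, adjusted p = 0.00164). The type 2 cytokines Il5 and Il4 rose as well, by 3.57 and 2.75, in cells polarised under IL-12. Il10, which dampens inflammation, rose by 2.61, and Tnf, encoding the inflammatory cytokine TNF, by 2.12.

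Of 23 measured cytokine genes 13 were higher and 1 lower (Osm, -0.53), against 2.65% and 4.63% of all genes. The median change was 1.14, against -0.02 for all genes. Ifng, the signature cytokine of Th1 cells, stood at 13.72 and 12.98 in restimulated arrays and 12.18 and 11.91 in unstimulated arrays. Its change of 1.30 (adjusted p = 0.0338) was smaller than those above, and the groups did not overlap, as held for 15.7% of all genes upward and 25.2% downward. Ifng did not pass without unstimulated array 1, without unstimulated array 2, or without restimulated array 1. Cytokines called higher numbered 6 without unstimulated array 1, 8 without unstimulated array 2, 6 without restimulated array 1 and 14 without restimulated array 2. Il3, Il13, Il2, Csf2, Il5 and Tnf passed in each of these, Il4 and Il10 did not pass without unstimulated array 1 or without restimulated array 1, and Il6 and Lta lost their calls in 3 of the 4. Il21, a cytokine that helps B cells, stood at 12.04 and 10.04 against 8.78 and 9.18 and did not pass (change 2.07, adjusted p = 0.0666). Il17a, made by Th17 cells, stood at 6.59 and 6.38 in restimulated arrays and 6.35 and 6.25 in unstimulated arrays (change 0.18, adjusted p = 0.874).

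The 250 bases before the start of the 5 genes with the largest rises are shown because cytokine promoters are where NFAT, AP-1 and NF-kappaB, the factors that T cell receptor signals activate, are known to bind. Sequences are from RefSeq (GRCm38.p6), 5′ to 3′ on the gene's strand, with the last base next to the start, and all 5 genes lie on the minus strand. Capitals mark the NFAT core TGGAAA on either strand, the only one of 4 motifs searched that was found. The other motifs were AP-1 (TGANTCA), NF-kappaB and the CArG box. The windows are chr11:54267280-54267529 for Il3, chr11:53634703-53634952 for Il13, chr3:37125955-37126204 for Il2, chr11:54249900-54250149 for Csf2 and chr2:57124004-57124253 for Nr4a2.
Il3: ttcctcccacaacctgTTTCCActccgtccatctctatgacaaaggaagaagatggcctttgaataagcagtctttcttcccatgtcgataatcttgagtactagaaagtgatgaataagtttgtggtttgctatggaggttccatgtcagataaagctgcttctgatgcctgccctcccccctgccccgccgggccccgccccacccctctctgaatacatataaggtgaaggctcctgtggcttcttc
Il13: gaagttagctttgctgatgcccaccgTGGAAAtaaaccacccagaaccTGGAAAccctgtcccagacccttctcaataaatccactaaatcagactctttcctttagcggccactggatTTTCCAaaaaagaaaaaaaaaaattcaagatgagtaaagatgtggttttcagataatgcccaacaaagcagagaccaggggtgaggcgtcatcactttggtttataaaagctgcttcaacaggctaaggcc
Il2: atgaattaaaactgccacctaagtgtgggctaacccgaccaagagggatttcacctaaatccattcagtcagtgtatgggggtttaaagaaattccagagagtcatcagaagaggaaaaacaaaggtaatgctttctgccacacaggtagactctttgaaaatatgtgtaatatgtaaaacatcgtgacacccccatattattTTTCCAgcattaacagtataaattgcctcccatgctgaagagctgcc
Csf2: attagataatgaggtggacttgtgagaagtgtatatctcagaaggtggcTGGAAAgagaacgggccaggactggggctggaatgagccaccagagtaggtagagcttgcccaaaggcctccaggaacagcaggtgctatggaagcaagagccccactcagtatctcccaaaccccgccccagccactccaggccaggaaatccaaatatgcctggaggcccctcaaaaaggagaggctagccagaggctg
Nr4a2: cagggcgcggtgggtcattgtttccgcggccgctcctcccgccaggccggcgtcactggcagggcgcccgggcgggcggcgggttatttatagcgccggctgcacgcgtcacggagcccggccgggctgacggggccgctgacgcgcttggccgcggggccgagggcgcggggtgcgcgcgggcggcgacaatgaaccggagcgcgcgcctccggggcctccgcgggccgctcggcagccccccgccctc
The NFAT core stands 3 times in the Il13 window and 1 time in those of Il3, Il2 and Csf2, and 0 times in that of Nr4a2, whose window is richer in G and C than the others. Over all 32851 promoter windows the NFAT core was present in 18.6%, AP-1 in 6.75%, NF-kappaB in 3.90% and the CArG box in 1.47%. Of the 85 genes with a large rise 61 had a window in the table, 83 windows in all, of which 20 held the NFAT core (24.1%), 6 AP-1 (7.23%), 9 NF-kappaB (10.8%) and 4 the CArG box (4.82%). A match is a stretch of letters and not evidence of binding.

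The 5 cytokine genes Il4, Il13, Il5, Csf2 and Il3 lie in one stretch of chromosome 11, and all 5 rose. Between them lie 7 other measured genes, of which 0 passed the test, with differences from -0.21 to 0.16. With 7.29% of all genes called, 0 of 7 does not set these genes apart. Of 25 annotated genes of the stretch 12 were measured. Slc22a21, Pdlim4 and P4ha2 stood between 5.93 and 6.98, near or under the array medians, so their levels may be background. Rad50, a DNA repair gene next to Il13, stood at 9.89 and 9.72 in restimulated arrays and 9.92 and 9.93 in unstimulated arrays. Irf1, an interferon regulatory factor gene beside Il5, stood at 11.40 and 11.75 in restimulated arrays and 11.47 and 11.62 in unstimulated arrays. Pdlim4 and P4ha2, toward Csf2, had differences of -0.07 and 0.16.

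**Figure D3:**
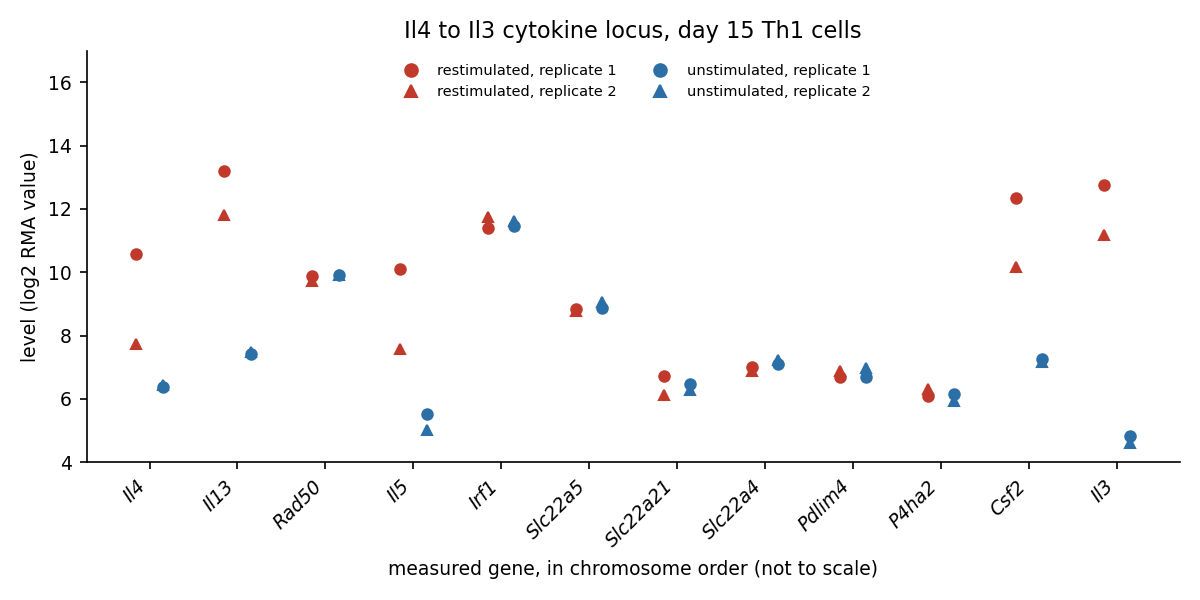
Level (log2 RMA value) of 12 measured genes in the order of their position on chromosome 11 (spacing not to scale), restimulated arrays left and unstimulated right for each gene. The cytokine genes Il4, Il13, Il5, Csf2 and Il3 lie far apart between the groups, while the group means of the other 7 differ by -0.21 to 0.16.

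Chemokine genes followed, 4 of 14 higher and 0 lower, against 2.65% and 4.63% of all genes, with a median change of 0.45. Ccl1, a ligand of the receptor Ccr8, stood at 12.88 and 11.23 in restimulated arrays and 8.08 and 8.51 in unstimulated arrays (change 3.76, adjusted p = 0.00192). Ccl3 and Ccl4, which draw monocytes and other leukocytes, rose by 2.97 and 2.96, and Xcl1, which attracts cross-presenting dendritic cells, by 1.94. All of these had higher values in both restimulated arrays than in both unstimulated ones, as held for 15.7% of all genes. Ccl1 passed without any single array, while the chemokine count fell to 1 without unstimulated array 1, 2 without unstimulated array 2 and 1 without restimulated array 1, and was 6 without restimulated array 2. Ccl5, which attracts T cells, had 13.41 and 13.40 in restimulated arrays and 13.39 and 13.44 in unstimulated arrays (change -0.01). Ccr8 itself rose by 2.07 and Cxcr4, a receptor for a bone marrow chemokine, by 1.61. These were the only calls among 22 homing and adhesion genes, of which the median was -0.26. Their share is near the 7.29% of all genes called either way, so nothing is read from this count. Ccr8 was lost without restimulated array 1 and Cxcr4 without unstimulated array 2. Without restimulated array 2 this list gave 3 higher and 6 lower.

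The probe sets of 2 microRNA genes rose: Mir155 by 2.50 (adjusted p = 0.00204) and Mir146 by 2.61 (adjusted p = 0.00407). Mir155 is known to promote effector T cell responses and Mir146a to restrain NF-kappaB signalling. Mir155 stood at 11.06 and 8.97 in restimulated arrays and 7.82 and 7.21 in unstimulated arrays. Mir146 stood at 7.49 and 5.29 in restimulated arrays and 3.32 and 4.24 in unstimulated arrays, and its call was lost without unstimulated array 1 or restimulated array 1. The arrays do not measure mature microRNAs. The mature forms, from RefSeq (GRCm38.p6), are shown because the seed, bases 2 to 8 in capitals, sets which targets they pair with, and the 2 seeds differ.
mmu-miR-155-5p: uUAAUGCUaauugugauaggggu
mmu-miR-146a-5p: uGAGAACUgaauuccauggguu
They lie at chr16:84714143-84714165 on the plus strand and chr11:43374435-43374456 on the minus strand.

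Of 24 immediate early factors 15 were higher and 0 lower, against 2.65% and 4.63% of all genes, with a median change of 1.20. Nr4a1, an orphan nuclear receptor whose transcript follows the strength of T cell receptor signals, stood at 13.51 and 13.02 in restimulated arrays and 9.86 and 10.00 in unstimulated arrays. Its change was 3.33 (SE 0.19, adjusted p = 2.84e-10), and its relatives Nr4a2 and Nr4a3 rose by 3.91 and 3.66. Atf3, a stress-induced factor of the basic leucine zipper family, stood at 11.60 and 11.12 in restimulated arrays and 8.20 and 7.04 in unstimulated arrays (change 3.74). The zinc finger factors Egr2, Egr3 and Egr1 rose by 2.46, 2.21 and 1.62, and the AP-1 members Fosl2, Fosl1 and Junb by 2.44, 1.77 and 0.90. Crem, a cyclic AMP responsive factor, rose by 1.88. The count was 15 without unstimulated array 1, 11 without unstimulated array 2, 12 without restimulated array 1 and 16 without restimulated array 2. Fosb lost its call without unstimulated array 2, and Junb without unstimulated array 1, unstimulated array 2 or restimulated array 1. Myc, a transcription factor of cell growth, had a difference of 0.88 that did not pass (adjusted p = 0.124). Irf4, a factor of activated lymphocytes, had one of 0.96 that did not pass (adjusted p = 0.127).

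Of 18 genes listed as NF-kappaB subunits and inhibitors, 13 were higher and 0 lower, against 2.65% and 4.63% of all genes. Their median change was 0.56. Rel, the subunit most tied to lymphocyte activation, stood at 12.92 and 12.07 in restimulated arrays and 10.86 and 10.75 in unstimulated arrays (change 1.70). Other genes of the list rose too: Nfkbid by 1.81, Nfkbiz by 1.55, Tnfaip3, encoding A20, by 1.48, and Nfkbia by 0.71. The subunits Nfkb2 and Relb rose by 1.08 and 1.06. The count was 6 without unstimulated array 1, 10 without unstimulated array 2, 9 without restimulated array 1 and 12 without restimulated array 2. Nfkbiz, Tnfaip3, Rel, Nfkbid and Nfkb2 passed in all 4 of these. The median of this list was 0.71 for replicate 1 and 0.50 for replicate 2.

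Of 27 negative regulators of signalling 13 were higher and 0 lower (median 0.79), against 2.65% and 4.63% of all genes. Dusp4, a phosphatase that shuts off MAP kinases, stood at 11.15 and 10.22 in restimulated arrays and 7.54 and 8.06 in unstimulated arrays (change 2.89, adjusted p = 1.75e-05). Rgs16, which shortens G protein signals, rose by 2.78, and Spry1, an inhibitor of the Ras pathway, by 2.47. Zc3h12a, an RNase that degrades cytokine messenger RNA, rose by 1.54, and Zfp36, which destabilises Tnf messenger RNA, by 1.12. The count was 6 without unstimulated array 1, 6 without unstimulated array 2, 5 without restimulated array 1 and 18 without restimulated array 2. Dusp4, Rgs16, Dusp16 and Zc3h12a passed in all 4, whereas Spry1 passed only without restimulated array 2. Kdm6b, a histone demethylase, had 12.87 and 12.36 in restimulated arrays and 10.05 and 10.20 in unstimulated arrays (change 2.49, adjusted p = 2.55e-08).

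Surface molecules of the activated T cell came next. In the TNF family and costimulation list 12 of 20 were higher and 0 lower (median 0.78), against 2.65% and 4.63% of all genes. Among the 12 were Tnfsf9 (1.85) and Tnfrsf9 (1.58), the ligand and receptor of the 4-1BB pair. Cd69, an early activation antigen, stood at 12.66 and 12.22 in restimulated arrays and 11.19 and 10.74 in unstimulated arrays (change 1.48, adjusted p = 0.000203). Cd40lg, which signals to B and dendritic cells, rose by 1.06, and Fasl, a death ligand, by 1.17. This count depended on single arrays: it was 1 without unstimulated array 1, 2 without unstimulated array 2 and 1 without restimulated array 1, and 15 without restimulated array 2, and Cd69 passed in all 4. The median was 1.20 in replicate 1 and 0.42 in replicate 2.

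Inhibitory receptors gave 4 of 13 higher and 0 lower, against 2.65% and 4.63% of all genes. Pdcd1, encoding PD-1, stood at 12.34 and 11.54 in restimulated arrays and 10.44 and 10.68 in unstimulated arrays (change 1.38, adjusted p = 0.00337). Nt5e (0.95), Cd274 (0.88) and Ctla4 (0.69) rose, while Lag3 and Tigit had differences of 0.01 and 0.21 that did not pass. Without unstimulated array 1 or without restimulated array 1 the count was 0, it was 2 without unstimulated array 2, and it was 7 without restimulated array 2. Among 19 cytokine receptor genes Il2ra, the high-affinity chain of the IL-2 receptor, stood at 12.62 and 11.93 in restimulated arrays and 10.72 and 10.87 in unstimulated arrays (change 1.47). Il4ra rose by 0.73 and Tgfbr1, a receptor of TGF-beta, fell by 0.55, both lost when 1 of 3 arrays was left out (either unstimulated array or restimulated array 1). Without restimulated array 2 the receptor list gave 4 higher and 3 lower.

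**Figure D4:**
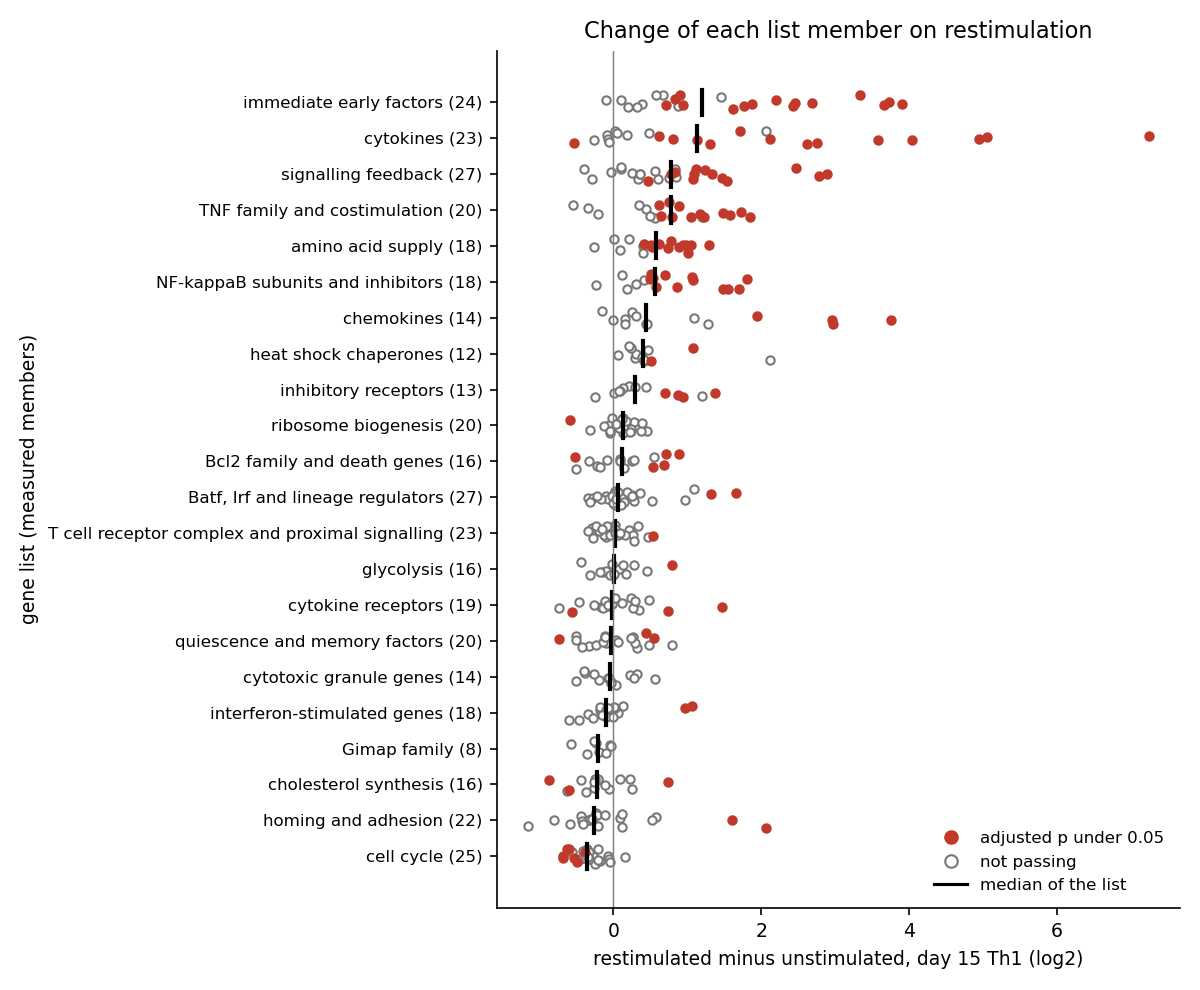
Log2 change on restimulation of each measured member of 22 gene lists, with filled points for an adjusted p under 0.05, open points otherwise and a black line at the median of the list. Immediate early factors, cytokines and signalling feedback genes have medians of 1.20, 1.14 and 0.79, and cell cycle genes of -0.36.

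Of 18 genes of amino acid uptake and the response to its shortage 12 were higher and 0 lower, against 2.65% and 4.63% of all genes. Their median change was 0.58. Slc7a5 and Slc3a2, the 2 chains of a large neutral amino acid transporter, rose by 0.98 and 0.94, and Sesn2, a sensor of leucine, by 1.29. Slc3a2 stood at 13.21 and 12.92 in restimulated arrays and 12.24 and 12.00 in unstimulated arrays. The count was 6 without unstimulated array 1, 6 without unstimulated array 2, 5 without restimulated array 1 (with 1 lower) and 12 without restimulated array 2. The other metabolic lists gave 1 higher of 16 in glycolysis (Hk2, 0.79), 1 lower of 20 in ribosome biogenesis (Dkc1, -0.59), and 1 higher and 2 lower of 16 in cholesterol synthesis, against 7.29% of all genes. The glycolysis call was lost without unstimulated array 1, without unstimulated array 2 and without restimulated array 1, and the ribosome biogenesis call without unstimulated array 1, unstimulated array 2 or restimulated array 2. Without restimulated array 2 ribosome biogenesis instead gave 3 higher and 0 lower, and glycolysis 2 higher and 1 lower. With cyclic loess ribosome biogenesis gave 1 higher and 0 lower. Of 12 heat shock chaperone genes 2 were higher, and Hspa1a, the inducible chaperone, stood at 11.96 and 11.95 in restimulated arrays against 10.39 and 9.29 in unstimulated ones (adjusted p = 0.0816). The heat shock count was 0 without unstimulated array 1, 1 without unstimulated array 2 and 0 without restimulated array 1, and 4 without restimulated array 2. The cholesterol genes gave 1 higher and 0 lower without unstimulated array 1, 0 and 0 without unstimulated array 2, 0 and 1 without restimulated array 1 and 1 and 3 without restimulated array 2.

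Lineage regulators and T cell receptor genes gave shares of calls near or below the 7.29% of all genes tested, so nothing is read from these counts. Of 27 Batf, Irf and lineage regulators 2 were higher, Bcl6 (1.66), a repressor of effector differentiation, and Nfil3 (1.33), a factor known from type 2 and natural killer cells. Bcl6 stood at 10.65 and 9.65 in restimulated arrays and 8.39 and 8.60 in unstimulated arrays and passed in every leave-out, while Nfil3 was lost in 3 of 4. Without restimulated array 2 the list gave 6 higher and 1 lower. Differences of 0.06 for Gata3, 0.22 for Batf and 0.10 for Prdm1 did not pass. None of 14 cytotoxic granule genes passed (1 was lower without restimulated array 2), with Gzmb, encoding granzyme B, at 11.80 and 12.05 in restimulated arrays and 12.13 and 12.24 in unstimulated arrays. Of 23 T cell receptor complex and proximal signalling genes 1 was higher, Zap70, by 0.54, and its call was lost without unstimulated array 1, unstimulated array 2 or restimulated array 1. Without restimulated array 2 these genes gave 4 higher and 3 lower. A p that misses the threshold does not show that these genes were unaffected, and with 2 arrays a side the precision is limited.

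Among quiescence and memory factors 2 of 20 were higher, Btg2 (0.55) and Foxp1 (0.45), and 1 lower, against 2.65% and 4.63% of all genes. Klf2, which keeps T cells resting and sets their traffic, stood at 10.12 and 11.21 in restimulated arrays and 11.46 and 11.34 in unstimulated arrays (change -0.74, adjusted p = 0.048). Its groups did not overlap, as held for 25.2% of all genes downward. Restimulated array 1 was the lower of its pair, and restimulated array 2 (11.21) lay close to unstimulated array 2 (11.34). All 3 calls of this list were lost without unstimulated array 1, without unstimulated array 2 and without restimulated array 1, and without restimulated array 2 the list gave 4 higher and 5 lower. Bcl2, a survival gene, fell by 0.52 while its relative Bcl2l1 rose by 0.69 and the pro-death gene Bcl2l11 by 0.72. In the list of Bcl2 family and death genes 4 of 16 were higher and 1 lower, against 2.65% and 4.63% of all genes. All 5 of these calls were lost without unstimulated array 1, without unstimulated array 2 and without restimulated array 1.

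Of 25 cell cycle genes 7 were lower and 0 higher, against 4.63% and 2.65% of all genes, with a median of -0.36. Ccna2, a cyclin of S phase, stood at 11.20 and 11.01 in restimulated arrays and 11.80 and 11.67 in unstimulated arrays (change -0.63, adjusted p = 0.00289), and Plk1, a mitotic kinase, fell by 0.68. The count was 0 without unstimulated array 1, 5 without unstimulated array 2, 3 without restimulated array 1 and 7 without restimulated array 2. Mki67, the proliferation antigen, stood at 11.51 and 11.51 in restimulated arrays and 11.98 and 11.57 in unstimulated arrays and did not pass (adjusted p = 0.23).

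The 9 large falls were Pklr, Atp1b2, Parpbp, Podxl, Napepld, H2bc8, Slc40a1, Nxpe2 and Gatm, with changes from -1.33 to -1.13. Pklr, the pyruvate kinase of liver and red cells, stood at 9.06 and 8.41 in restimulated arrays and 10.36 and 9.79 in unstimulated arrays (change -1.33, adjusted p = 0.00421). Atp1b2, a sodium pump subunit, stood at 8.82 and 8.65 in restimulated arrays and 10.16 and 9.93 in unstimulated arrays (change -1.31). Podxl, a sialomucin, and Napepld, a lipid enzyme, fell by 1.23 and 1.17. These 2, Atp1b2 and Parpbp passed without any single array. Slc40a1, the iron exporter of macrophages and red cell precursors, fell by 1.15. Pklr was lost without unstimulated array 1, and Slc40a1, Nxpe2, Gatm and H2bc8 without unstimulated array 1 or restimulated array 2 (Nxpe2 also without unstimulated array 2). In the same arrays Ermap, an erythroid membrane protein gene, stood at 9.56 and 8.49 in restimulated arrays and 10.24 and 9.84 in unstimulated arrays (change -1.01, adjusted p = 0.00966). Of 5 erythroid markers 2 were lower, Ermap and Rhd (-0.78), against 4.63% of all genes. The median of the 5 was -0.42, with Slc4a1 at -0.03 and Alas2 at -0.18. The list's mean level was 8.92 and 8.37 in restimulated arrays and 9.38 and 8.88 in unstimulated arrays, and both calls were lost without unstimulated array 1 or restimulated array 2. Ppbp, a platelet gene, was lower (-1.15), 1 of 4 platelet markers, as was Klrb1c (-0.83), 1 of 5 natural killer cell markers. The Ppbp call was lost without unstimulated array 2 or restimulated array 1, and the Klrb1c call without unstimulated array 1, unstimulated array 2 or restimulated array 1. Their part in the falls was not tested. In these bulk samples fewer cells of a type and less RNA per cell cannot be told apart.

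The same genes were read in Th1 cells at day 5 and in Th17 cells at day 15. For the 85 genes with a large rise, chosen at day 15 in Th1 cells and so favouring that setting, the median change was 1.88 in Th1 cells at day 15, 1.80 in Th1 cells at day 5 and 1.51 in Th17 cells at day 15. In 58 of 85 the change was greater at day 15 than at day 5, and in 67 of 85 greater than in Th17 cells. The log2 change of Il3 was 7.24 in Th1 cells at day 15, 5.68 in Th1 cells at day 5 and 3.19 in Th17 cells at day 15, that of Il13 was 5.05, 4.10 and 1.56, and that of Il4 was 2.75, 3.38 and 0.23. Atf3 showed 3.74, 4.08 and 4.11, and Nr4a1 3.33, 2.99 and 2.93. The 9 large falls were also chosen at day 15 in Th1 cells. Their medians were -1.17 at day 15, -0.51 in Th1 cells at day 5 and -1.35 in Th17 cells at day 15. Unstimulated day 5 means of Slc40a1, Nxpe2, Podxl, Pklr and Atp1b2 ran from 5.79 to 6.88. These lay near or under the array medians and may be background. Gatm, Napepld, H2bc8 and Parpbp stood at 7.77 to 9.84 there and changed by -0.69 to -0.92 at day 5. Whether low levels limited the day 5 falls was not tested.

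**Figure D5:**
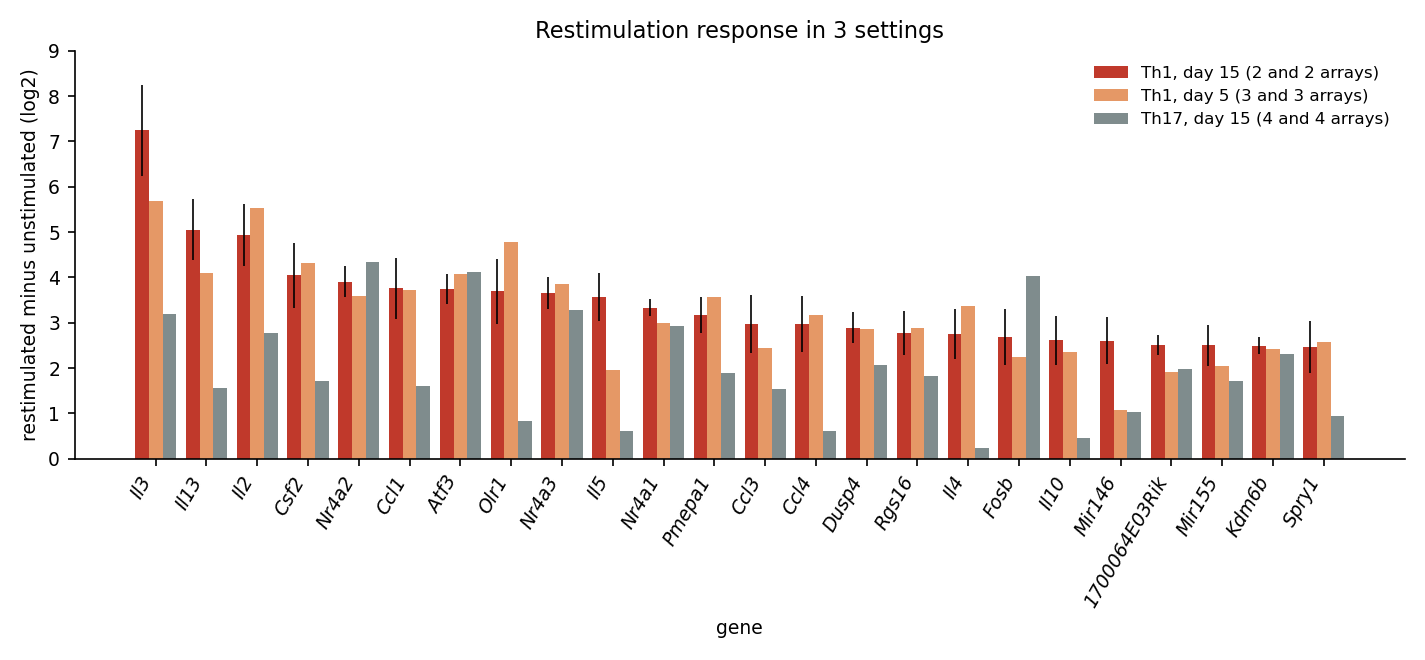
Log2 change on restimulation of the 24 genes with the largest rises, bars for Th1 cells at day 15 (with limma standard errors), Th1 cells at day 5 and Th17 cells at day 15. Atf3 and Nr4a1 have bars of like height in all 3 settings, while Il4 has 2.75, 3.38 and 0.23.

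The difference between the day 15 response of Th1 cells and that of Th17 cells passed the test for 0 of 19938 genes (0%). An unadjusted p under 0.05 was found for 1216 genes. With no difference at all, a share of about 0.05 of the genes would be under that level. Il3, whose change was 4.05 greater in Th1 cells, had an adjusted p = 0.591, and the lowest adjusted p over all genes was 0.0788. The count was 1 without restimulated Th1 array 1, 272 without restimulated Th1 array 2, and up to 12 without 1 of the Th17 arrays (12 without restimulated Th17 array 1). Against day 5, 5 genes differed (0.0251%), 1 higher (0.00502%) and 4 lower (0.0201%). Trib3, a stress-response pseudokinase gene, stood at 8.33 and 7.84 in restimulated day 15 arrays against 7.55 and 7.37 in unstimulated ones, and at 9.57, 9.34 and 9.72 in restimulated day 5 arrays against 7.66, 7.58 and 7.50 in unstimulated ones. Its change was 1.34 smaller at day 15 (day 15 minus day 5 -1.34, adjusted p = 0.0405). Slc30a1, a zinc exporter gene, differed by -1.21, Nipa1, a magnesium transporter gene, by -1.08 and Atp1b2 by -1.48. Serpinb9b, a protease inhibitor gene, ran the other way, by 1.48. Mean levels of Atp1b2 were 7.05 in restimulated and 6.88 in unstimulated day 5 arrays, against 8.74 and 10.04 at day 15. Its day 5 levels lay near the array medians and may be background. Whether Atp1b2 had room to fall at day 5 was not tested. The count of genes was 12 without restimulated day 5 array 2 and 0 without any other of the day 5 arrays. It was also 0 without either unstimulated day 15 array. It was 89 without restimulated array 1 of day 15 and 2 without restimulated array 2.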

How the data were processed

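Transcript levels of 28 mouse samples were measured on Affymetrix arrays from 150 ng of RNA. The deposited values are log2 expression, made by the authors with RMA in Affymetrix Expression Console, per the submitters' processing notes, and the sources used here give no version or genome build. The method subtracts background and equalises the distributions of all arrays, which removes shifts that most genes share. Of 35556 probe sets, 21789 had 1 gene symbol, 1621 several and 12146 none, and 21698 of the first matched the gene table by identifier. The probe set with the highest mean stood for each of 19938 genes (999 had several).

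Groups came from the labels. limma 3.58.1 (R 4.3.3) was fitted to the 24 arrays after transfer in 8 groups, with 16 residual degrees of freedom and Benjamini-Hochberg adjustment over all genes. Interactions tested day 15 minus day 5 in Th1 cells and Th1 minus Th17 at day 15. The pipeline was tested on simulated data. The members and the gene lists were chosen with earlier results of these data known: 512 list entries, of which 473 matched. Named were up to 15 large changes each way, up to 4 called genes of each list, a panel, and up to 5 and 3 each way of the interactions. Others, Fos, Hspa1a, Kdm6b, Smad7 and members of cytokine and receptor lists among them, were chosen after their values were seen. Alternatives are given at the close.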

Additional observations from a re-analysis of the deposited data

Results flagged for a closer look

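The response of 5 genes differed between day 15 and day 5 Th1 cells by a test of the difference itself (limma, adjusted p under 0.05): Trib3 by -1.34, Atp1b2 by -1.48, Slc30a1 by -1.21, Nipa1 by -1.08 and Serpinb9b by 1.48 log2 units, day 15 minus day 5. Serpinb9b, a granzyme inhibitor family gene, stood at 7.12 and 7.92 in restimulated and 6.59 and 6.38 in unstimulated day 15 arrays, against 8.45, 8.44 and 8.75 in restimulated and 9.07, 8.84 and 9.06 in unstimulated day 5 arrays. Slc30a1 had 7.30 and 7.83 in restimulated and 7.91 and 8.17 in unstimulated day 15 arrays. Atp1b2 had day 5 means of 7.05 restimulated and 6.88 unstimulated, near the array medians, against 8.74 and 10.04 at day 15. Whether it had room to fall at day 5 was not tested. The count of 5 genes fell to 0 without either unstimulated day 15 array, and without any day 5 array but restimulated array 2.

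Some arrays outside the day 15 Th1 comparison lay far from the others of their group in the mean level of a gene list. In restimulated Th17 cells of day 15, replicate 1 stood apart for the TNF family and costimulation list, at 10.88, and for cytokine receptors, at 10.92. In unstimulated Th17 cells of day 15, replicate 3 stood apart for ribosome biogenesis, at 9.69, and cholesterol synthesis, at 9.18. The nominal rate of the rule is about 1 chance flag in 20 groups of this size, and it was not measured here. Many lists were read in the same arrays. How many of these flags chance would give was not tested.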

How the results depend on the processing

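The 94 large changes kept their direction under each of the alternative settings in which they were tested (84 of them with genes above the median only). They were chosen by the sign and size of these same differences, so this was largely fixed in advance and is no support. With only the groups compared in the model, 42 kept their call. That model called 42 genes (39 higher, 3 lower), and array weights called 329 (185 and 144). Cyclic loess called 796 higher and 795 lower (796 of 1591, against 36.4% higher as reported), and centring on array medians 428 and 1419 (23.2% higher). Leaving out 1 array gave 343 to 2646 genes, 176 to 823 higher and 167 to 1823 lower. Large changes numbered 42 (39 higher, 3 lower) with only the groups compared, 391 at a threshold of 0.58 log2 units and 17 at 2, and large falls 5 with array weights. Large changes need both numbers, so leaving out a Th1 array of day 15 gives no count of them. The day interaction called 1 gene with only the groups compared and with only Th1 arrays, 3 with array-median centring, 0 with array weights, 3 with the fixed replicate block and 5 with the random one, and 0 to 89 without 1 array. The Th1 minus Th17 interaction called 1 with only the groups compared, with array-median centring, with the fixed replicate block and with the random replicate block, and 0 to 272 without 1 array. For the 4 day 15 Th1 arrays the replicate number was not shown to pair samples: deviations of equal numbers correlated at 0.130 over 9969 genes with 2 pairs. The fixed replicate block called 1386 genes (542 higher, 844 lower) and the random block 1604. The cause of these shifts was not tested. The number of arrays limits the precision.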

Other observations

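Among the large rises were 4 genes whose products are known to act on SMAD factors, the mediators of TGF-beta signals. They were chosen after their values were seen, and no list of such genes was counted. Pmepa1, a membrane inhibitor of SMAD activation, stood at 11.94 and 10.66 in restimulated arrays and 7.91 and 8.35 in unstimulated arrays (log2 change 3.17, adjusted p = 2.98e-05). Tgif1, a corepressor of SMAD factors, stood at 11.97 and 11.54 in restimulated arrays and 9.39 and 9.23 in unstimulated arrays (2.44, adjusted p = 7.92e-10). Skil, which blocks SMAD complexes, rose by 2.30, and Smad7, an inhibitory SMAD, by 1.42. All 4 passed without any single array. Other large rises were Per1, a clock gene (1.86), Sik1, a salt-inducible kinase gene (1.52), and Gadd45b, a stress-induced gene (2.14). Olr1, a scavenger receptor gene, had 11.05 and 7.49 in restimulated arrays and 5.50 and 5.66 in unstimulated arrays (3.69), and its call was lost without restimulated array 1.

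Single arrays differed from the other 3 of the comparison by at least 1.5 log2 units in some genes. Restimulated array 1 was above all others in 36 genes and restimulated array 2 in 14. The 36 included genes with large rises, Il3, Csf2, Il4, Il5, Il10, Ccl1 and Mir155 among them. They also included genes without, such as Cxcl9, Irf8 and Penk. The 14 of restimulated array 2 held Ppil6 (7.12 in that array, 4.13 in restimulated array 1, against 4.15 and 4.27 in unstimulated arrays), the odorant receptor genes Olfr1444 and Olfr1445, and the taste receptor genes Tas2r135 and Tas2r143. Mir142 was lower in restimulated array 2, at 8.69, than in restimulated array 1 (11.18) and unstimulated arrays (10.40 and 10.38). These genes were chosen after their values were seen.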
